A study of Mus musculus with 20 samples.

Results

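The receptors for GABA and glutamate, the main inhibitory and excitatory transmitters of the hypothalamus, were examined gene by gene. Members were the protein-coding genes whose symbols name a GABA-A, GABA-B, AMPA, kainate, NMDA, delta or metabotropic glutamate receptor subunit and that had at least 10 counts in 3 or more libraries. Of 54532 genes in the table, 47 carried such a symbol and 42 passed that filter, 16 of GABA-A, 2 of GABA-B, 17 of ionotropic and 7 of metabotropic glutamate receptors. The 5 that did not pass were Gabra6, with at most 40 counts in any library, Gabrp, Gabrr3, Grin3b and Grm6, of which Grm6 had no count in any library. RNA was sequenced from hypothalamus of male C57BL/6J mice, the only strain and sex, in 20 libraries. Gly-Low names a diet with compounds meant to lower glycation, the reaction of sugar-derived molecules with proteins. The acute Gly-Low group (4 libraries) and the acute control group (5 libraries) were 4 months old and had been on their diet for 1 week. The old Gly-Low group (3 libraries) and the old control group (4 libraries) were 25 months old and had been on their diet for 5 months. The young control group (4 libraries) was 3 months old and had been on control diet for 1 week. The labels do not say whether each library came from its own animal, so p-values measure the spread between these libraries.

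GABA-A receptors are chloride channels built mostly from alpha and beta subunits together with a gamma or delta subunit, and the subunit mix sets GABA affinity, drug sensitivity and position at or away from the synapse. GABA-B receptors are G protein coupled receptors that need both Gabbr1, which binds GABA, and Gabbr2, which couples to the G protein. AMPA, kainate and NMDA receptors are glutamate-gated cation channels, delta receptors organise synapses with cerebellins, and metabotropic glutamate receptors signal through G proteins. In the hypothalamus these receptors carry the fast input to the neurons that control feeding and hormone release.

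The libraries held 15848372 to 27399753 counts each. The acute Gly-Low libraries had a different make-up from the acute controls. Mitochondrial transcripts took 17 to 23.3% of their counts, against 5.35 to 9.11% in acute control. The 42 receptor genes took 0.222 to 0.398% of all counts in acute Gly-Low, against 0.515 to 0.701% in acute control. The length slope of a library, the change in log2 CPM per doubling of transcript length relative to the mean of all libraries, ran from -0.43 to -0.23 in acute Gly-Low, against 0.14 to 0.23 in acute control, so long transcripts were scarcer in acute Gly-Low. Acute controls 2, 3 and 5 held the most pituitary transcripts. The 12 pituitary markers summed to 56.1 to 244 CPM in acute Gly-Low and 21.5 to 61522 CPM in acute control, with 372 CPM in acute control 4. Their highest sums in the ageing groups were 1234 CPM in old Gly-Low 1 and 758 CPM in old control 2. Of the 9 pituitary markers that could be tested 8 were lower in acute Gly-Low, against 30.5% of all genes tested. The pituitary factor Pou1f1 was at 0 in all 4 acute Gly-Low libraries. All 19 hypothalamic markers were expressed, with sums of 1663 to 2746 CPM in acute Gly-Low and 647 to 4114 CPM in acute control. The 4114 CPM was in acute control 2, which also had the highest pituitary sum. Of the 19, 8 were higher and 6 lower in acute Gly-Low, against 27.8% and 30.5% of all genes tested. In bulk tissue, fewer cells of a type and less RNA per cell cannot be told apart.

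Levels are compared between genes as TPM, in which counts are divided by transcript length before scaling to the library total, and between groups as CPM, counts scaled to the library total with TMM factors. The order of the highest receptor genes depended on the length used. With the median length of a gene's transcripts Gabbr1 came first, with a mean of 405 TPM over the 20 libraries, while Gria1, an AMPA subunit, had 198 and Gabra3, an alpha subunit, 161 TPM. With the length of the merged exons Gria1 came first, with 276 TPM, ahead of Gabbr1 with 229 TPM. In acute control Gabbr1 stood at 514 ± 56.6 TPM and its obligate partner Gabbr2 at 16.8 ± 6.09 TPM (SD, n = 5). In the same group Gria1 stood at 267 ± 30.8 and Gabra3 at 179 ± 49.8 TPM (SD, n = 5), so with the median length both lay below Gabbr1 by more than their SDs. With merged exon lengths the order of Gria1 and Gabbr1 turned, at 370.2 ± 51 TPM for Gria1 and 289 ± 37.8 TPM for Gabbr1 in acute control (SD, n = 5). Within its family the highest level over all libraries belonged to Gabrq among the GABA-A subunits outside alpha, beta and gamma. Among glutamate receptors it belonged to Gria1 (AMPA), Grik2 (kainate), Grin1 (NMDA), Grid1 (delta), Grm5 (group I), Grm3 (group II) and Grm7 (group III). These family leaders are by median length, and with merged exon lengths the NMDA leader was Grin3a and the other leaders named here were the same. The rho subunits Gabrr1 and Gabrr2 and the delta subunit Gabrd, which serves tonic inhibition, were near the floor, at 0.429, 1.99 and 2.01 TPM in acute control.

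**Figure D1:**
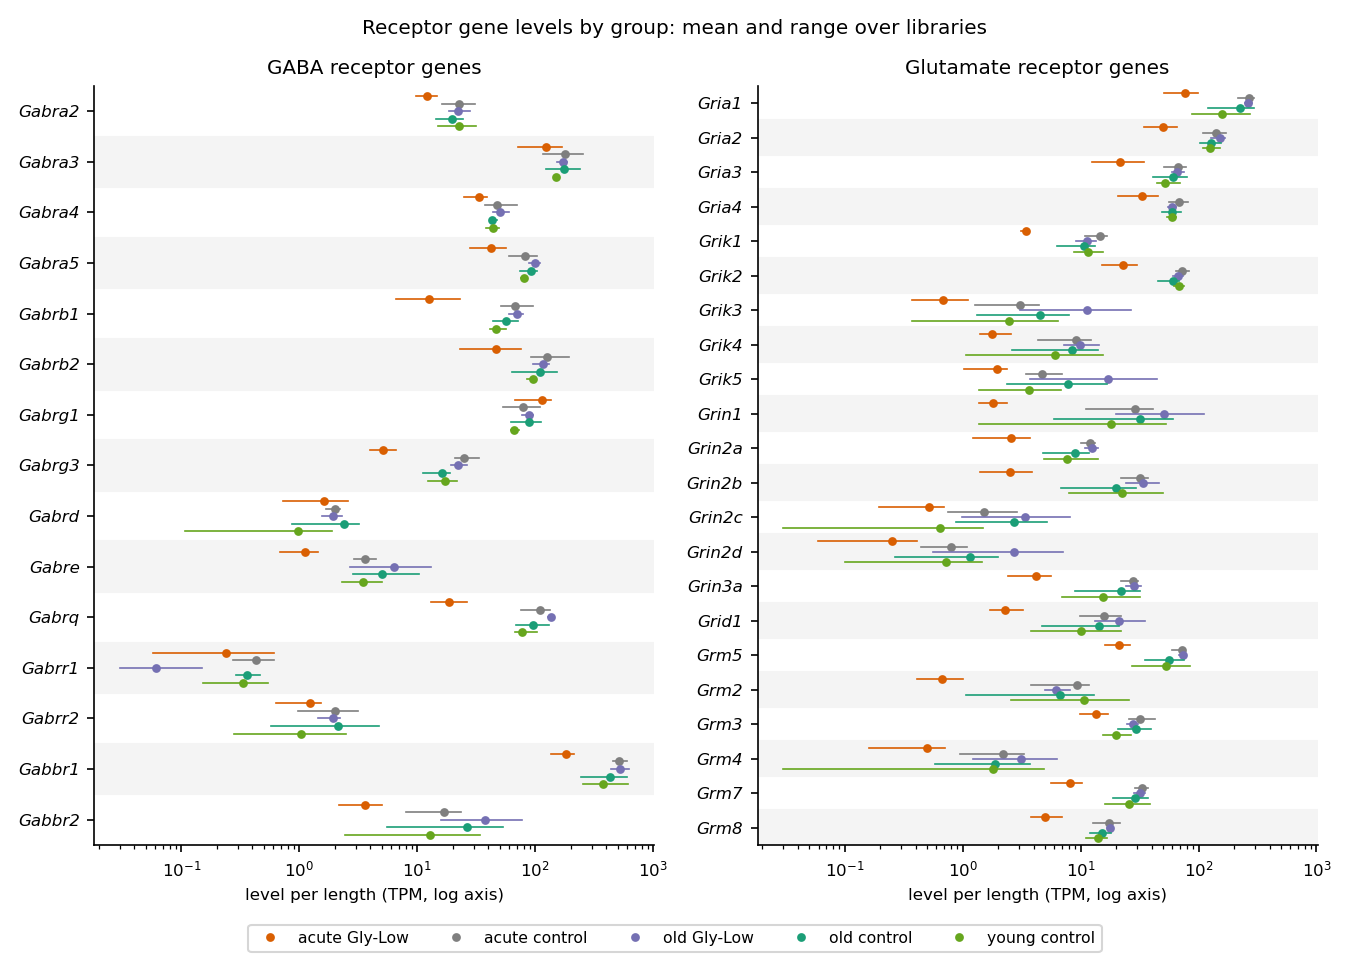
Level per length (TPM, log axis) of 37 receptor genes in the 5 groups, with points for group means and lines for the range over libraries. A level of 0 is drawn at the left end of its line, at 0.03 TPM. With the median transcript length used here, Gabbr1 lies highest, and Gabrr1 lowest, of the 37 genes shown.

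The acute comparison asked how 1 week of Gly-Low diet changed the hypothalamus of young mice. Of the 42 receptor genes, 27 fell and 1, the gamma subunit Gabrg1, rose in acute Gly-Low (edgeR quasi-likelihood test, Benjamini-Hochberg adjusted p under 0.05). The background was broad. Of all 17161 genes tested, 58.3% passed, 27.8% higher and 30.5% lower in acute Gly-Low. The median log2 fold change was -0.91 over the receptor genes and -0.07 over all genes tested. By class, the falls took in 19 of 24 glutamate receptor genes and both GABA-B genes, but 6 of 16 GABA-A genes. Median transcript lengths start at 3049 bases in glutamate receptor genes and at 1876.5 bases in GABA-A genes. With length and G and C trends taken out of the fit, 22.7% of all genes were lower. So were 11 of 17 ionotropic, 5 of 7 metabotropic, 0 of 2 GABA-B and 6 of 16 GABA-A genes. With the length slope as a covariate over all 20 libraries these counts were 5, 3, 0 and 4, against 8.76% of all genes. The part of length in the class counts was not tested. For 24 receptor genes every acute Gly-Low library lay below every acute control, against 23.9% of all genes, and for Gabrg1 every one lay above, against 23% of all genes. General neuron markers moved the same way in part. Of 14, 8 were lower and 1 higher in acute Gly-Low, none was at 0 in an acute library, and their sum was 4791 to 5505 CPM in acute Gly-Low and 6354 to 7802 CPM in acute control. Their part in the receptor results was not tested.

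Markers of other cells were also read in the acute comparison, where 30.5% of all genes tested were lower and 27.8% higher in acute Gly-Low. Of 10 astrocyte markers 5 were lower and 2 higher, with a summed level of 2574 to 3267 CPM in acute Gly-Low and 3501 to 4477 CPM in acute control. Of 8 markers of oligodendrocyte precursors 6 were lower, with sums of 131 to 176 and 303 to 376 CPM in the same groups. Of 10 oligodendrocyte markers 5 were higher and 1 lower, of 10 microglia markers 6 were higher and 2 lower, of 8 endothelial markers 2 were higher and 5 lower, and of the 8 choroid plexus and ependyma markers tested 3 were higher and 3 lower. Markers of cortex and hippocampus summed to 72.9 to 111 CPM in acute Gly-Low and 167 to 391 CPM in acute control, with 3 of 10 lower. Of 12 striatal markers 8 were lower and 1 higher, of 9 thalamic markers 2 were lower and 2 higher, and of the 8 cerebellar markers tested 1 was lower and 3 were higher. Their part in the receptor results was not tested.

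**Figure D2:**
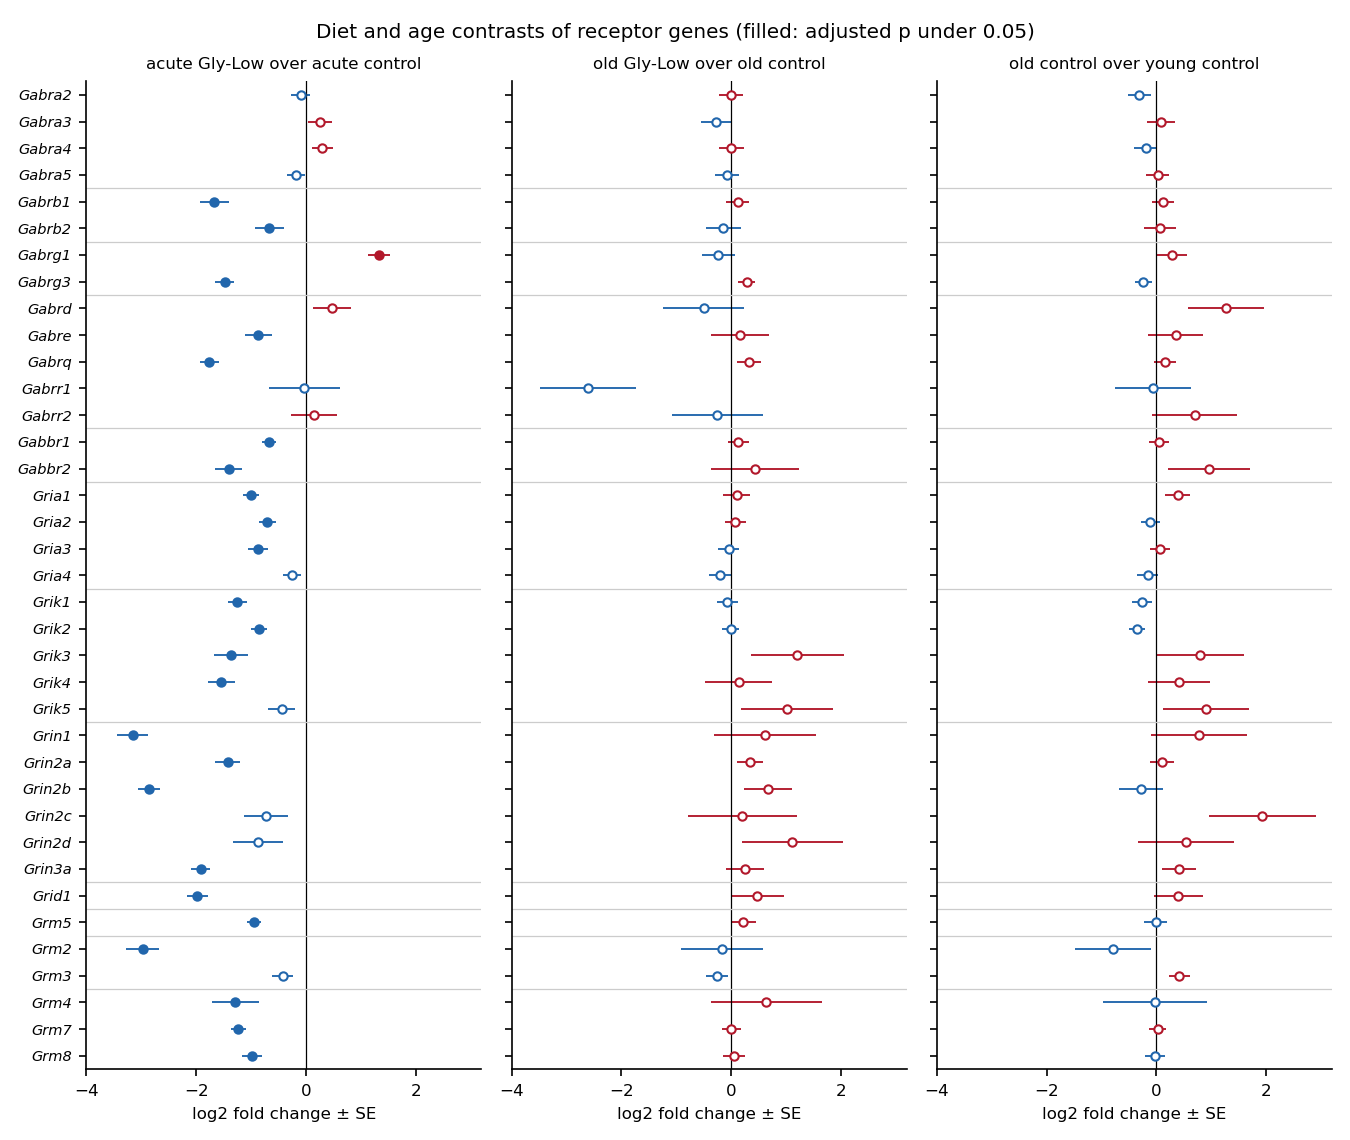
Log2 fold change with its SE for 37 receptor genes, grouped by family, in the acute diet, old diet and age comparisons. Filled points passed an adjusted p of 0.05, blue is lower and red higher in the group named first. In the acute comparison 24 filled points lie left of 0 and 1 lies right of it, and no point is filled in the other 2 panels.

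The GABA-A genes differed by subunit. The alpha subunits Gabra2, Gabra3, Gabra4 and Gabra5, which hold the GABA site together with beta, did not pass the test. Their log2 fold changes ran from -0.17 ± 0.16 for Gabra5 to 0.30 ± 0.19 for Gabra4 (SE). Gabra4 had 56.7, 77.1, 58.5 and 66.8 CPM in acute Gly-Low and 80.9, 50.3, 39.3, 46.9 and 48.4 CPM in acute control. The groups overlapped, with acute control 1 highest. On the TPM scale, where the mitochondrial share enters the total, Gabra4 averaged 33.5 in acute Gly-Low, against 47.8 in acute control. Gabra3 and Gabra4 passed as higher without acute control 1, at 0.47 and 0.51 on the log2 scale.

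The beta subunits Gabrb1 and Gabrb2, which form the GABA site with alpha subunits, fell. Gabrb1 had 85.7, 111, 217 and 115 CPM in acute Gly-Low, against 634, 336, 326, 403 and 415 CPM in acute control, a log2 fold change of -1.67 ± 0.27 (SE) with adjusted p = 8.88e-05 by edgeR. Every acute Gly-Low library was below every acute control. Gabrb2 fell by 0.66 ± 0.26 (SE) on the log2 scale with adjusted p = 0.0384 by edgeR, its groups overlapped, and the call was lost when any 1 of acute controls 1, 4 and 5 or acute Gly-Low 1, 2 and 4 was left out, with a log2 fold change of -0.41 without acute control 1.

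The gamma subunits Gabrg1 and Gabrg3 went in opposite directions. Gabrg1, a gamma subunit of glia and of some limbic and hypothalamic neurons, had 308, 449, 448 and 514 CPM in acute Gly-Low, against 254, 122, 166, 169 and 152 CPM in acute control. Its log2 fold change was 1.33 ± 0.20 (SE) with adjusted p = 5.91e-05 by edgeR. The lowest acute Gly-Low library lay above the highest acute control. Gabrg3, a less abundant gamma subunit, had 21.7, 27.4, 26.4 and 18.9 CPM in acute Gly-Low, against 92.1, 58.1, 57.6, 66.5 and 58 CPM in acute control. It fell by 1.48 ± 0.18 (SE) on the log2 scale with adjusted p = 6.61e-06 by edgeR, and the groups did not overlap.

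Of the other GABA-A genes, Gabrq (theta) and Gabre (epsilon), subunits found in hypothalamic and monoamine neurons, fell. Gabrq had 43.4, 53, 63 and 44.9 CPM in acute Gly-Low, against 224, 126, 169, 173 and 180.2 CPM in acute control, a log2 fold change of -1.76 ± 0.18 (SE) with adjusted p = 1.36e-06 by edgeR. The groups did not overlap. Gabre fell by 0.87 ± 0.24 (SE) on the log2 scale, at 2.35 to 4.97 CPM in acute Gly-Low and 6.07 to 8.51 CPM in acute control. An offset takes each library's trend on a transcript property out of the fit. The call for Gabre was lost with an offset for transcript length, at -0.35, with one for length and G and C content, at -0.10 with adjusted p = 0.764 by edgeR, and with all 20 libraries in one fit, at -0.89 with adjusted p = 0.0815 by edgeR. Gabrd, Gabrr1 and Gabrr2, all at or under 3.95 CPM in the acute libraries, did not pass, with SEs of 0.35 to 0.65. Several GABA-A genes lie side by side in clusters. In the chromosome 5 cluster Gabrg1 rose, Gabra2 and Gabra4 did not pass and Gabrb1 fell. Gabra4 (chr5:71569749-71658308, minus strand) and Gabrb1 (chr5:71658113-72149037, plus strand) start head to head and share 46 exonic bases on opposite strands. The library preparation did not keep strand, per the labels, so reads from those bases cannot be told apart.

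Promoter windows, from 250 bases before to 50 after the RefSeq start in GRCm38.p6, are shown for 3 genes of the chromosome 5 cluster, because neighbours there moved in different directions, and for Grin1 and Grm2, which had the largest falls. Capitals mark the GC box GGGCGG on either strand (CCGCCC on the other), the site letters of SP1-type factors. The windows are Gabrg1 (chr5:70842568-70842867, minus strand), Gabra4 (chr5:71658259-71658558, minus strand), Gabrb1 (chr5:71657671-71657970, plus strand), Grin1 (chr2:25319138-25319437, minus strand) and Grm2 (chr9:106656060-106656359, minus strand), each given 5′ to 3′ on its own strand.
Gabrg1: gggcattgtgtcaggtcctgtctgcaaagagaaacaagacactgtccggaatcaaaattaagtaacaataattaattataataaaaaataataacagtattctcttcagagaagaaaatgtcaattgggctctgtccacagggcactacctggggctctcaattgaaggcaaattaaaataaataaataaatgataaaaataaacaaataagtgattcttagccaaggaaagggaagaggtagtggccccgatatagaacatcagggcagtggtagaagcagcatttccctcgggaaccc
Gabra4: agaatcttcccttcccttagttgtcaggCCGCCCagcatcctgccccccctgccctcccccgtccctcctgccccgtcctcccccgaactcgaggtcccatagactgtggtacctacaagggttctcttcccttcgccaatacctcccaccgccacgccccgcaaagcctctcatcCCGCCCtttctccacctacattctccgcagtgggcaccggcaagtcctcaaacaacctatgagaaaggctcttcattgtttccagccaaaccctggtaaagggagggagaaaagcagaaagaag
Gabrb1: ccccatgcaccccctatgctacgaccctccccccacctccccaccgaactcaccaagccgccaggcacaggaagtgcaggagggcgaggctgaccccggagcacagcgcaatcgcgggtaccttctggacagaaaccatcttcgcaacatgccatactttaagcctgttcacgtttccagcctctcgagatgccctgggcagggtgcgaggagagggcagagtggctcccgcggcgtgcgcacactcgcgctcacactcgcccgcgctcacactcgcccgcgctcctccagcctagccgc
Grin1: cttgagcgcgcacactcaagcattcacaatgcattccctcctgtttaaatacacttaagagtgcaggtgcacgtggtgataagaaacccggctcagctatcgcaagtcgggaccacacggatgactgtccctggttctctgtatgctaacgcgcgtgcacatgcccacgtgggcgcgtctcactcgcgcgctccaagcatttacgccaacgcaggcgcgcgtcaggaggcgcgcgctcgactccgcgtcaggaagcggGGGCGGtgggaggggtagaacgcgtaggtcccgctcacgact
Grm2: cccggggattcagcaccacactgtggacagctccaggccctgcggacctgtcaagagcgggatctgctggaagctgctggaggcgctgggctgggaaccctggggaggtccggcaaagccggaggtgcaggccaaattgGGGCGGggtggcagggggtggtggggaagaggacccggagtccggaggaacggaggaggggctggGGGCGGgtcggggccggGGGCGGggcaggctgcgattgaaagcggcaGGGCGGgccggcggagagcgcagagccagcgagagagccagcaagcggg
GC boxes number 0 in Gabrg1, 2 in Gabra4, 0 in Gabrb1, 1 in Grin1 and 4 in Grm2. The Gabrg1 window has 38.3% G and C and 3 CG pairs, Gabrb1 has 66% and 25, and Grin1 has 60.7% and 33. Another Gabrb1 window, not shown, has 50.3% and 9. RefSeq held 34 such windows for 27 of the 42 genes, and the GC box stood in 19 of the 34, against 35.7% of all 32851 windows. The 34 were also richer in G and C, with medians of 61% and 13 CG pairs, against 52.7% and 7 over all windows. The cAMP response element TGACGTCA was in 0 of the 34, against 1.79% of all windows. A match describes letters in this window only.

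Both GABA-B genes fell in acute Gly-Low in the fit without an offset, and neither passed with length and G and C trends taken out. Gabbr1 had 367, 434, 416 and 433 CPM in acute Gly-Low, against 617, 657, 733, 678 and 625 CPM in acute control, a log2 fold change of -0.67 ± 0.12 (SE) with adjusted p = 3.53e-04 by edgeR. Gabbr2 had 12, 18.9, 19.8 and 14.6 CPM in acute Gly-Low, against 22.2, 42.2, 54.3, 39.8 and 60.3 CPM in acute control, a log2 fold change of -1.40 ± 0.25 (SE) with adjusted p = 2.14e-04 by edgeR. In neither gene did the groups overlap. Gabbr2 missed the threshold when all 20 libraries were fitted together, at -1.42 with adjusted p = 0.062 by edgeR. With the length and G and C offset the log2 fold change of Gabbr1 was -0.25 with adjusted p = 0.0763, and that of Gabbr2 was -0.27 with adjusted p = 0.176, by edgeR. With the merged exon length offset Gabbr1 was at -0.21 and did not pass.

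Of the 4 AMPA genes 3 fell. Gria1 had 264, 312, 371 and 368 CPM in acute Gly-Low, against 726, 563, 659, 714 and 641 CPM in acute control, a log2 fold change of -0.99 ± 0.15 (SE) with adjusted p = 4.57e-05 by edgeR. Gria2, whose edited form keeps the channel closed to calcium, fell by 0.70 and Gria3 by 0.87 on the log2 scale. Gria4 had 104, 143, 166 and 141 CPM in acute Gly-Low and 209, 143, 147, 174 and 159 CPM in acute control, and its log2 fold change of -0.25 ± 0.16 (SE) did not pass. As a share of AMPA TPM, Gria4 made up 18.3% ± 0.881 in acute Gly-Low (SD, n = 4) and 12.6% ± 0.646 in acute control (SD, n = 5).

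Of the 5 kainate genes 4 fell. Grik2, the main kainate subunit here, fell by 0.86 ± 0.14 (SE) on the log2 scale with adjusted p = 1.31e-04 by edgeR, at 45.4 to 66.3 CPM in acute Gly-Low and 90.3 to 128 CPM in acute control. With the merged exon length offset its log2 fold change was -0.09, with adjusted p = 0.592 by edgeR, and the call was lost. Grik1 fell by 1.25, Grik3 by 1.36 and Grik4, a high-affinity subunit, by 1.54 on the log2 scale. The other high-affinity subunit, Grik5, had a log2 fold change of -0.44 ± 0.24 (SE) and did not pass. Grik1 had 9.62, 9.35, 8.10 and 9.01 CPM in acute Gly-Low, against 26.3, 17, 23.4, 20.4 and 21.1 CPM in acute control, with no overlap. The groups did overlap for Grik3, whose call was lost with the length offset, at -0.34, and without acute controls 2, 3 and 5, at -0.78.

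The NMDA genes held the largest fall of the 42. Grin1, the subunit that every NMDA receptor needs, had 5.30, 5.58, 6.59 and 5.80 CPM in acute Gly-Low, against 21.5, 47.7, 71.7, 52.9 and 69.8 CPM in acute control. Its log2 fold change was -3.16 ± 0.29 (SE) with adjusted p = 6.99e-07 by edgeR, and the acute controls themselves varied, with acute control 1 lowest. An antisense transcript, Grin1os, overlaps 1307 exonic bases of Grin1 and had at most 43 counts in any library. Grin2b, a glutamate-binding subunit with slow channels, had 9.98, 15.7, 20.2 and 13.1 CPM in acute Gly-Low, against 79.5, 112, 116, 111 and 125 CPM in acute control. It fell by 2.86 ± 0.20 (SE) on the log2 scale with adjusted p = 1.88e-07 by edgeR. The glycine-binding subunit Grin3a had 17.2, 30.9, 29.1 and 21.5 CPM in acute Gly-Low, against 101, 78.6, 98.7, 90.0 and 103 CPM in acute control, a log2 fold change of -1.92 ± 0.17 (SE) with adjusted p = 6.01e-07 by edgeR. In none of these 3 genes did the groups overlap. Grin2a fell by 1.42 on the log2 scale. Grin2c and Grin2d, at or under 5.79 CPM in the acute libraries, had log2 fold changes of -0.72 ± 0.40 (SE) and -0.87 ± 0.45 (SE) and did not pass. The delta gene Grid1 had 9.31, 9.57, 12.9 and 9.50 CPM in acute Gly-Low, against 27.5, 38.3, 55.4, 39.3 and 45.8 CPM in acute control, a log2 fold change of -1.98 ± 0.19 (SE) with adjusted p = 1.12e-06 by edgeR and no overlap.

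Among the metabotropic glutamate receptor genes Grm2, Grm4, Grm5, Grm7 and Grm8 fell. In group I, which couples to phospholipase C, Grm5 had 69.2, 85.1, 82 and 70.1 CPM in acute Gly-Low, against 167, 129, 143, 155 and 153 CPM in acute control, a log2 fold change of -0.95 ± 0.13 (SE). In group II, which lowers cyclic AMP, the members differed. Grm2, a presynaptic autoreceptor, had 1.34, 1.75, 2.37 and 1.73 CPM in acute Gly-Low, against 6.33, 16, 17.5, 17.1 and 15 CPM in acute control. It fell by 2.97 ± 0.30 (SE) on the log2 scale with adjusted p = 1.66e-06 by edgeR, and acute control 1 was the lowest of the controls. Grm3, found in neurons and astrocytes, had 28.9, 28.1, 34 and 41.2 CPM in acute Gly-Low and 62.6, 37.5, 36.4, 50.3 and 36.2 CPM in acute control. Its log2 fold change of -0.42 ± 0.19 (SE) did not pass, with adjusted p = 0.0659 by edgeR, and it passed as lower without acute control 3 (-0.50) or without acute Gly-Low 4 (-0.54). In group III, presynaptic receptors that limit release, Grm7 had 19.7, 27.3, 26.2 and 21.1 CPM in acute Gly-Low, against 60.9, 50.9, 55, 60.2 and 52.6 CPM in acute control, a log2 fold change of -1.23 ± 0.14 (SE) with adjusted p = 3.63e-06 by edgeR. Grm8 fell by 0.98 and Grm4 by 1.29 on the log2 scale. Grm4 lay at or under 5.00 CPM, its groups overlapped, and its call was lost without acute control 4, where its log2 fold change was -1.10.

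**Figure D3:**
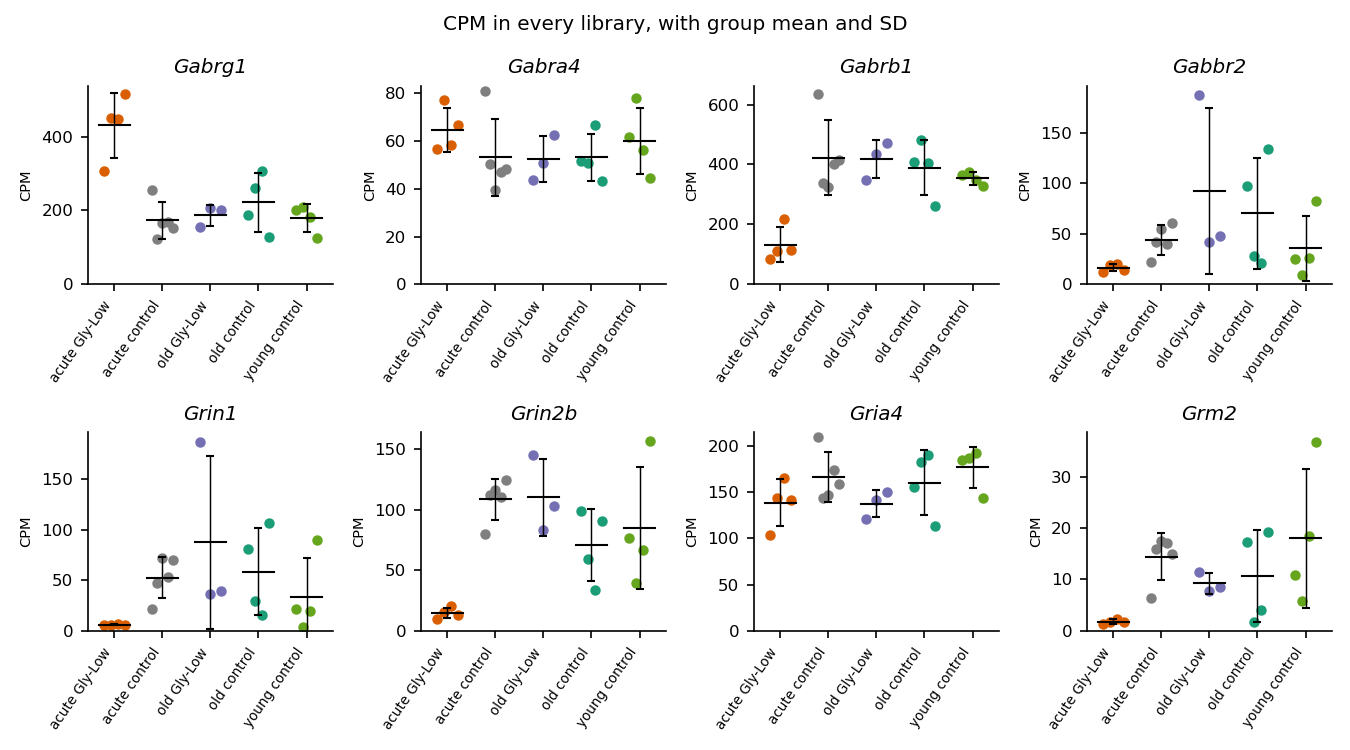
CPM of 8 receptor genes in every library, with the group mean (bar) and SD (whiskers, cut at 0). Gabrg1 is higher and Gabrb1, Gabbr2, Grin1, Grin2b and Grm2 are lower in all 4 acute Gly-Low libraries than in any acute control. Gabra4 and Gria4 overlap.

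Transcript length moved with these results. The receptor genes have a median transcript length of 4336 bases, against 2538 bases over the genes tested with a length. Across the 42 genes the acute log2 fold change had a Spearman rho of -0.55 with length and -0.36 with the G and C content of the transcript, and across all genes -0.56 and -0.24. Genes share libraries and depth, so these describe and are not tested. Genes were divided by length into 5 classes of equal size. In the longest class 60.8% of all genes were lower in acute Gly-Low, and 16 of the 22 receptor genes there were. In the next class 44.2% of all genes were lower, and 9 of 11 receptor genes were. In the middle class it was 29% of all genes and 2 of 7 receptor genes, and in the class below it 14.3% and 0 of 2. With each library's length trend taken out as an offset, 19 receptor genes were lower and 3 higher, against 23.9% of all genes lower and 23.9% higher in the same fit. The 3 were Gabrg1 at 1.98, Gabra2 at 0.63 and Gria4 at 0.48 on the log2 scale. With both length and G and C trends taken out, 22 were lower and Gabrg1 was higher, against 22.7% of all genes lower and 22.9% higher. In that fit the median of the receptor genes was -0.42, against -0.91 without an offset.

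Under all 4 offsets tried (length, merged exon length, G and C, and length with G and C), 13 receptor genes stayed lower and Gabrg1 stayed higher. Among them were Gabrg3, Gabrq, Grid1, Grik1, Grik4, Grin1, Grin2b, Grin3a, Grm2, Grm5 and Grm7. The share of all genes that kept their call under all 4 offsets was not counted, so this joint count has no background. Genes that were lower without an offset and missed the threshold under at least 1 of the 4 were Gabrb1, Gabrb2, Gabre, Gabbr1, Gabbr2, Gria1, Gria2, Gria3, Grik2, Grik3, Grin2a, Grm4 and Grm8. Gria3 was at -0.24, Grin2a at -0.43 and Grm8 at -0.34 with the merged exon length. The log2 fold change of Grin1 lay between -2.69 and -2.16 under these offsets, that of Grm2 between -2.76 and -2.10, that of Grin2b between -2.73 and -1.86 and that of Gabrg1 between 0.62 and 1.98. The log2 fold change of Gabrb1 was -0.65 with the length offset, where it did not pass, and that of Gria1 was -0.26, where it did not pass either. That of Gria2 was 0.13 and did not pass. With the length slope as a covariate over all 20 libraries 12 receptor genes were lower and 2 others, Gabbr2 at 1.81 and Grik3 at 1.84, were higher, against 8.76% of all genes lower and 11.2% higher. Gabrg1 was at 0.55 in that fit and did not pass. Neither did Grid1 at -0.01, Grik4 at 0.85, Grin3a at -0.53, Grm2 at -0.56 and Grm5 at -0.39. In that fit the estimate for Grin1 was 0.61, with adjusted p = 0.489 by edgeR, and the length slope and the acute diet groups do not overlap. When the 3 acute controls with high pituitary markers (2, 3 and 5) were left out, 26 receptor genes were lower and 1 higher, against 21.1% of all genes lower and 19.7% higher.

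**Figure D4:**
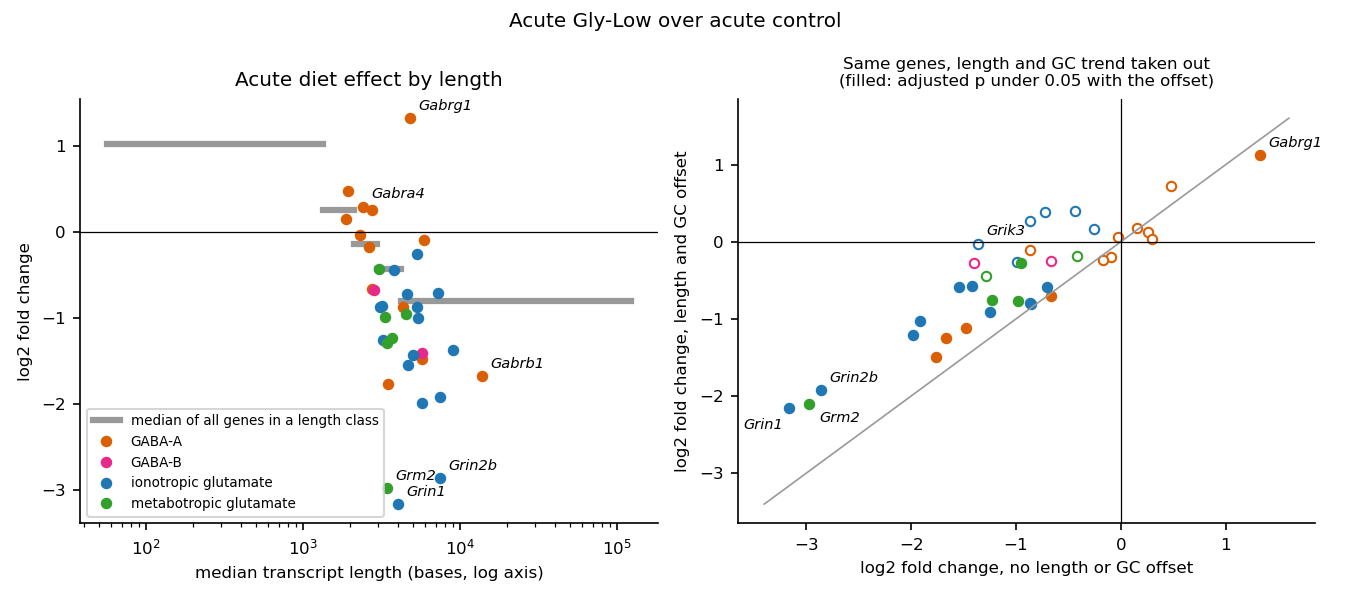
Left, acute log2 fold change of 37 receptor genes against their median transcript length (log axis), with grey bars for the median of all genes in each of 5 length classes. Right, the same log2 fold changes without an offset (x) and with a length and G and C offset (y), with the diagonal in grey. Gabrg1 lies above 0 on both axes, and Grin1, Grm2 and Grin2b lie at -1.92 or below on both.

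Subunit make-up within families is set out by library. In the NMDA family Grin1 made up 16.1% ± 3.65 of the summed TPM in acute Gly-Low (SD, n = 4) and 27.1% ± 7.16 in acute control (SD, n = 5). Grin2a made up 21.2% ± 3.80 and 12.1% ± 2.40, and Grin2b 21.1% ± 2.37 and 31.1% ± 2.37, in the same groups. In group II, Grm2 made up 4.68% ± 1.06 in acute Gly-Low, against 23.3% ± 8.71 in acute control. Of the shares given for the acute groups, those of Gria4, Grin2a, Grin2b and Grm2 do not overlap and that of Grin1 does. TPM divides by length and these shares were not corrected for the length trend. They are a description with no test.

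**Figure D5:**
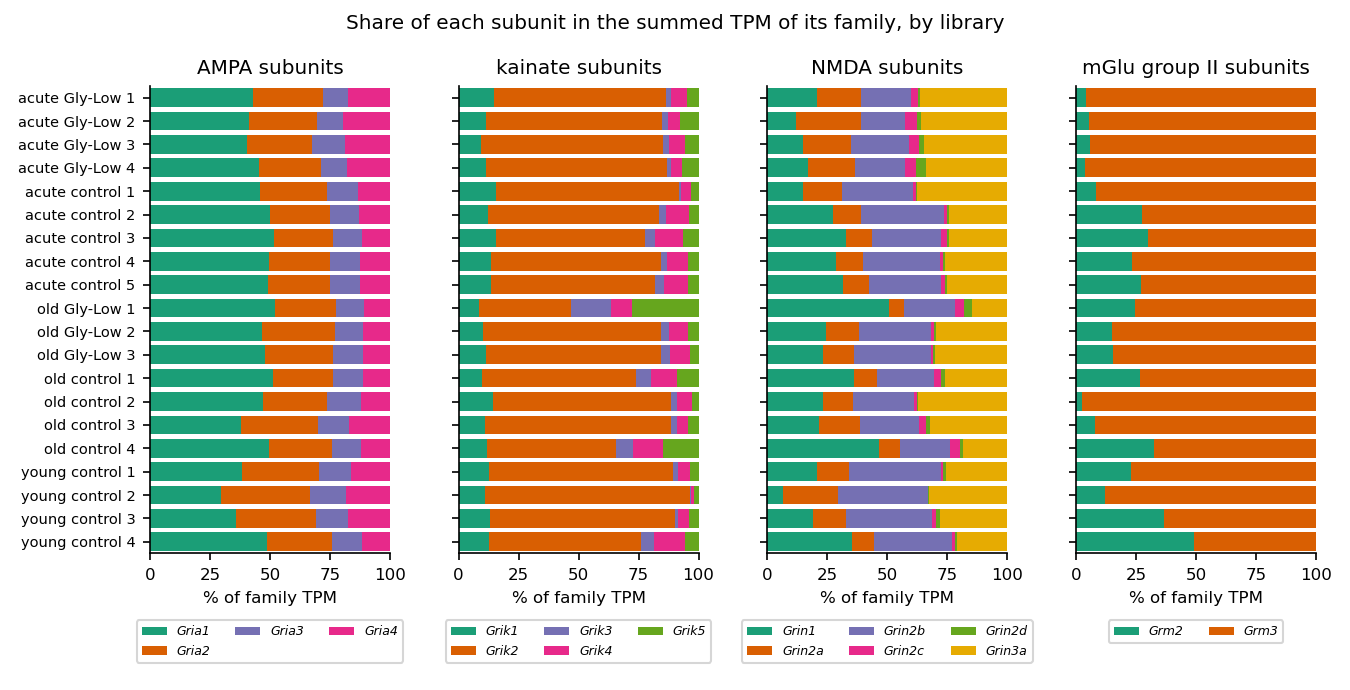
Share (%) of each subunit in the summed TPM of the AMPA, kainate, NMDA and group II metabotropic families in every library. The acute Gly-Low bars have more Gria4 and Grin2a and less Grin2b and Grm2 than the acute control bars.

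Genes that make, move and anchor the transmitters and receptors were read from 6 lists in the acute comparison. Of all genes tested there, 30.5% were lower and 27.8% higher in acute Gly-Low. In the shortest of the 5 length classes 61.6% of all genes were higher, and in the longest 60.8% were lower. The list values are from the fit without an offset, and the part of transcript length in them was not tested. Of 9 genes of GABA synthesis and transport, 7 fell and 2 rose. Slc32a1, the vesicular GABA transporter, fell by 1.89 and Aldh5a1, a later enzyme of GABA breakdown, by 1.08 on the log2 scale. The 2 that rose were the GABA transporters Slc6a13 at 1.46 and Slc6a12 at 1.32. Of 14 genes of glutamate synthesis and transport 8 fell and 1 rose, with Slc1a4 at -1.86, Slc38a3 at -1.73 and Slc38a1 at -1.31. Of 20 GABA receptor scaffold and accessory genes 11 fell and 5 rose. Among these Gabarap, which binds gamma subunits, rose by 1.33, while Clptm1, which retains GABA-A subunits in the endoplasmic reticulum, fell by 1.01 and Hap1 by 2.03. The other 4 that rose were Gabarapl2 at 1.06, Kctd12b at 0.74, Gabarapl1 at 0.60 and Trak2 at 0.50. Of 27 AMPA and kainate receptor accessory genes 18 fell and 1 rose, with the AMPA auxiliary subunit Shisa9 at -1.78, Olfm2 at -1.60 and Nsf at -1.64. Of 22 postsynaptic scaffold genes 12 fell and 1 rose, with Camk2a at -2.13, Camk2b at -1.67 and Dlg3 at -0.91. Of 4 chloride transporters 2 fell, Slc12a5, which keeps neuronal chloride low, at -1.75 and Clcn2 at -0.93. The list medians ran from -1.22 for GABA synthesis and transport to -0.51 for the postsynaptic scaffold, against -0.07 over all genes tested.

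The age and old diet comparisons share the old controls. Between old control and young control, the age comparison, 0 of 42 receptor genes passed by edgeR, against 0.0328% of 18281 genes, and 2 had an unadjusted p under 0.05. DESeq2 also called 0. Grik2 had 98.3, 104, 96 and 84.6 CPM in old control and 122.6, 141, 118 and 101 CPM in young control, a log2 fold change of -0.36 ± 0.15 (SE) with adjusted p = 0.498 by edgeR. Grm3 had 42.1, 59.4, 42.5 and 35.5 CPM in old control and 32.4, 37.9, 28.8 and 34.1 CPM in young control, a log2 fold change of 0.42 ± 0.19 (SE) with adjusted p = 0.545 by edgeR. Neither gene passed. Grin2c, an NMDA subunit, had the smallest p after them, with 7.81, 2.38, 2.70 and 10.3 CPM in old control, 0.941, 0, 2.05 and 2.84 CPM in young control and a log2 fold change of 1.93 ± 0.97 (SE). With the diet in old mice, 0 of 42 passed by edgeR, against 0% of 18281 genes, and 1 had an unadjusted p under 0.05. DESeq2 also called 0. That gene was Gabrr1, at 0, 0.155 and 0.035 CPM in old Gly-Low and 0.483, 0.432, 0.444 and 0.306 CPM in old control, under 1 CPM throughout. Gabrg3 had 63, 50.4 and 52.1 CPM in old Gly-Low and 48.6, 53, 43.1 and 39.6 CPM in old control, a log2 fold change of 0.28 ± 0.16 (SE) with adjusted p = 0.953 by edgeR. Grin2b had 145, 82.9 and 103 CPM in old Gly-Low and 99.2, 59.5, 33.9 and 90.4 CPM in old control, a log2 fold change of 0.67 ± 0.43 (SE). The SE of the old diet log2 fold change had a median of 0.29 over the 42 genes and that of age 0.26, so changes of that size lie within the error.

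In the ageing groups the spread between libraries of 1 group followed the G and C content of the transcript. The within-group SD of log2 CPM over these 11 libraries had a Spearman rho of 0.67 with it over the 42 genes, which share the libraries. Over the acute libraries that rho was 0.34. The 21 genes above the median content had a median SD of 0.74 log2 units and the 21 others 0.26. Those above include the genes near the floor, Grin2c, Grin2d, Grm4, Gabrd, Gabrr1 and Gabrr2, at or under 1.85 TPM over all libraries. Expression level was not taken into account. Grin1, with 59.3% G and C, had 187, 36.4 and 39.8 CPM in old Gly-Low, 81.6, 29.6, 16 and 107 CPM in old control and 22, 3.68, 19.2 and 90.5 CPM in young control. Grik3 had 101, 12.4 and 15.4 CPM in old Gly-Low, 26.2, 10.1, 8.03 and 31.3 CPM in old control and 10.1, 2.22, 5.99 and 24.5 CPM in young control. In both genes old Gly-Low 1, old control 4 and young control 4 were the highest of their groups. The same libraries had the highest slope of log2 CPM on G and C content, 0.60, 0.54 and 0.34 per 10 percentage points, and young control 2, lowest for both genes in its group, had -0.46. Old Gly-Low 1 and young control 4 also had the highest length slopes of their groups, 0.29 and 0.22, and young control 2 the lowest, -0.27. Old control 4, at 0.15, lay below old control 1, at 0.16. The part of G and C content, length and level in the results was not tested.

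Acute control and young control are both young control-diet groups, 1 month apart in age, and each also serves another comparison. Between acute control and young control, 0 of 42 receptor genes passed by edgeR, against 5.29% of 19061 genes (0.923% higher and 4.37% lower in acute control), and 4 had an unadjusted p under 0.05. Gria1 came nearest, with 726, 563, 659, 714 and 641 CPM in acute control, 452, 311, 401 and 620.2 CPM in young control and a log2 fold change of 0.57 ± 0.19 (SE) with adjusted p = 0.0804 by edgeR. It passed by DESeq2, the 1 call of that tool. Grin3a had a log2 fold change of 0.67 ± 0.27 (SE). Without young control 4, 7 receptor genes passed as higher in acute control, against 9.56% of 18969 genes, and that library is the highest young control for each of the 7, which include Gria1, Grid1, Grik4, Grin2a and Grin3a.

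The diet effect of the old arm minus that of the acute arm was tested over all 20 libraries. It was higher than 0 for 22 receptor genes and lower for 1, against 16.8% and 19.2% of 19061 genes (36% in all). The 1 was Gabrg1, with -1.56 ± 0.37 (SE) on the log2 scale and adjusted p = 0.00266 by edgeR. The median diet log2 fold change of the 42 genes was 0.09 in the old arm and -0.91 in the acute arm. The diet log2 fold change of Gabrq was 0.33 in the old arm and -1.76 in the acute arm, a difference of 2.08 ± 0.27 (SE) with adjusted p = 3.85e-05 by edgeR. For Grin2b it was 0.67 in the old arm and -2.86 in the acute arm, a difference of 3.52 ± 0.52 (SE) with adjusted p = 7.67e-05 by edgeR. For Gabrg3 it was 0.28 and -1.48, a difference of 1.75 ± 0.24 (SE), which was 0.77 with the length offset and did not pass there, with adjusted p = 0.0652 by edgeR. For Grm7 it was 0.00 and -1.23, for Grin3a 0.25 and -1.92 and for Grik1 -0.07 and -1.25. With the length offset 12 were higher and 1 lower, against 9.96% and 13.3% of all genes. The difference for Grin1 was 3.76 and lost its call without old Gly-Low 1, where it was 2.53, and that of Grik3 was 2.56 and 0.91 without that library. The call for Grik3 was lost when any 1 of 10 of the 20 libraries was left out. The arms differ in age, in length of feeding and in the library make-up of their diet groups, which cannot be told apart. Mitochondrial transcripts took 17 to 23.3% of counts in acute Gly-Low and 5.35 to 9.11% in acute control. They took 4.94 to 7.36% in old Gly-Low and 5.54 to 15.8% in old control. The length slope ran from -0.43 to -0.23 in acute Gly-Low and 0.14 to 0.23 in acute control. It ran from 0.08 to 0.29 in old Gly-Low and -0.20 to 0.16 in old control.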

How the data were processed

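RNA-seq counts per gene of 20 hypothalamus libraries were analysed. The values deposited by the authors are raw counts. Their tools, per the submitters' processing notes, include featureCounts 1.5.0-p3, HISAT2 2.0.5 and DESeq2 1.20.0, with the build GRCm38 and without the role of each. The sources used here give neither the annotation release nor the strand setting. Of 54532 gene IDs, 54495 matched the annotation and 21380 had no count. No 2 libraries held identical values.

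Counts were fitted in R 4.3.3 with edgeR 4.0.16 (TMM factors, filterByExpr, glmQLFit and glmQLFTest) with Benjamini-Hochberg adjustment over all genes tested and a threshold of 0.05. The acute groups were fitted alone, the age and old diet comparisons on the 11 ageing libraries, and the others on all 20. DESeq2 1.42.0, other scalings and filters, length and GC offsets, a replicate block and leaving out single libraries were alternatives. The script was tested on simulated data. CPM uses TMM-scaled library sizes. TPM uses the median length of a gene's basic transcripts.

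Members and lists were chosen with earlier results of these data known. Full values are given for up to 10 members with the smallest p in each direction of the acute comparison, up to 8 passing members (or the 3 with the smallest p) of the others, the most abundant member of each family and up to 3 genes per pathway list. Others named were chosen after their values were seen. Some genes that this rule covers are not reported here. Replicate numbers come from the sample titles. By title, same-numbered libraries deviated together in the old diet groups, with correlations of 0.25 to 0.42, and not in the acute groups. Whether the numbers pair the old libraries is uncertain, because the deposited columns number the old Gly-Low libraries 1, 4 and 5 and differently numbered old pairs correlated at -0.50 to 0.58.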

Additional observations from a re-analysis of the deposited data

Results flagged for a closer look

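In 10 of 168 group checks (42 genes in the 4 groups of 4 or 5 libraries), 1 library lay far from the rest of its group by Dixon's criterion, and chance gives about 5%. Acute control 1 accounts for 6 of them. It had, among others, the highest CPM of its group for Gabrb1 (634), Gabrb2 (256), Gabrg3 (92.1) and Gabra4 (80.9), and the lowest for Grm2 (6.33). Young control 4 was high for Grin2a (29.4 CPM) and low for Gria4 (144 CPM). Young control 3 was low for Gria3 (82.4 CPM), and acute Gly-Low 3 was high for Grid1 (12.9 CPM).

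The diet effect differed between the old and the acute arm for 23 of the 42 genes by edgeR's test of the difference itself, against 36% of all genes. The differences given here, old minus acute on the log2 scale, were Grin1 3.76, Grin2b 3.52, Grm2 2.79, Grik3 2.56, Grid1 2.44, Grin3a 2.16, Gabrq 2.08, Gabrb1 1.78, Grin2a 1.76, Gabrg3 1.75, Grm7 1.22, Grik1 1.17, Grm5 1.17, Gria1 1.09, Grm8 1.03, Grik2 0.84, Gria3 0.81, Gabbr1 0.78, Gria2 0.77 and Gabrg1 -1.56. With the length offset those of Grik3, Gabrb1, Gabrg3, Grm5, Gria1, Grm8, Grik2, Gria3 and Gria2 did not pass. Those of Gabbr1 and Grin2a missed the threshold with the merged exon length offset and with the length and G and C offset. Without acute controls 2, 3 and 5 those of Grin1, Grm2, Grik3 and Gabbr1 did not pass. Among those lost with the slope covariate were Grin1, Grm2, Grid1, Grin3a, Grik1, Grm7 and Gabrg1.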

How the results depend on the processing

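The number of receptor genes lower in acute Gly-Low, 27, was 25 to 28 when 1 library was left out, and the number higher was 1 to 4. Over all genes the same fits gave 4773 to 5589 lower and 4392 to 5205 higher. The number higher was 3 with the length offset, 2 with the merged exon length, 2 with the slope covariate (lower 12) and 2 with the replicate block and length offset. Of all genes 23.9% were higher with the length offset and 11.2% with the slope covariate (8.76% lower). Of the other values, Grin1 in the acute comparison was 0.61 with the slope covariate. The cause was not tested. The GC and the length and GC offsets were chosen after seeing the data.

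For age, the slope covariate gave 1 gene lower, Grin2b. For the old diet, Gabrg3 was -0.12 with the replicate block and length offset. DESeq2 gave 1 higher gene between the young groups, and leaving out 1 library gave 0 to 7, against 0 to 1814 of all genes. For the difference between arms DESeq2 gave 2 lower genes and leaving out 1 library gave 1 to 2. The number higher was 12 with the length offset, 10 with merged exon length and 8 with the slope covariate. It was 14 with the replicate block and length offset, where 6 were lower. Of all genes 9.96% were higher and 13.3% lower with the length offset. Leaving out 1 library gave 2199 to 3748 of all genes higher and 3007 to 3926 lower. For the remaining settings in this section the share of all genes is not given.

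The replicate block alone gave 25 lower and 1 higher gene in the acute comparison, and 0 in the old diet comparison, where the pairing by number is uncertain. The median of all genes moved to -0.23 without a filter and to 0.17 with the slope covariate in the acute comparison. Depth limits Gabrr1, Gabrr2, Gabrd, Grin2c, Grin2d and Grm4, and groups of 3 to 5 libraries limit the rest.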

Other observations

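Grin2b, chosen after its values were seen, made up 27.8% ± 5.86 of the summed NMDA TPM in old Gly-Low (SD, n = 3), 23.6% ± 1.81 in old control (SD, n = 4) and 36.2% ± 2.57 in young control (SD, n = 4). The lowest young control lay at 32.7% and the highest old control at 25.2%. These shares are a description with no test, and the age log2 fold change of Grin2b did not pass, at -0.28 ± 0.41 (SE).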
